A study of Mus musculus with 10 samples.

Results

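Binding of the transcription factor RUNX1 was examined around 4 matrix genes, Fn1, Col1a1, Col4a1 and Col4a2, in mouse large biliary epithelial (MLE) cells, the epithelium of larger bile ducts. The genes were chosen by name, with earlier results of these data known. A peak belonged to a gene when its summit lay in a window that holds the gene and about 50 kb on each side: chromosome 1 from 71.57 to 71.75 Mb for Fn1, chromosome 11 from 94.77 to 94.90 Mb for Col1a1, and chromosome 8 from 11.20 to 11.55 Mb for Col4a1 and Col4a2, which start next to each other on opposite strands and share 1 window (GRCm39). Overlapping peaks of the 6 ChIP libraries were merged into sites. Of 64286 such regions in the genome, 54 were sites of these windows, with 10 at Fn1, 13 at Col1a1 and 31 at Col4a1 and Col4a2. The study measured RUNX1 by chromatin immunoprecipitation and sequencing (ChIP-seq) in cells grown close to confluence and left overnight with TGFβ (10 ng/mL) or with vehicle. Each treatment had 3 ChIP libraries, 2 from batch 1 (replicates 1 and 2) and 1 from batch 2 (replicate 3), and the 4 input libraries were not analysed here. No genotype or genetic change is named for the cells, the vehicle is not described, and no source says whether batch 1 replicates of a treatment are separate cultures, so the spread between them, and any p-value, may reflect technical variation only. Peak lists hold no expression values, so the labelled cell type could not be compared with its markers.

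RUNX1 binds DNA as a heterodimer with CBFβ, through its Runt domain, at a short motif with a core of TGTGGT or TGCGGT, and can activate or repress genes with partner factors. TGFβ acts through receptor kinases and SMAD proteins, which bind DNA weakly and act together with other factors, RUNX proteins among them. In many epithelial and mesenchymal cells TGFβ raises matrix production. Fn1 encodes fibronectin, a glycoprotein that cells assemble into fibrils and grip through integrins. Col1a1 encodes the α1 chain of type I collagen, the main fibril-forming collagen of scar tissue. Col4a1 and Col4a2 encode the chains of the widespread type IV collagen, which forms the network of basement membranes such as the one beneath bile duct epithelium.

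Promoter sequence was at hand for Col4a1 and Col4a2 (RefSeq, GRCm38.p6, 250 bases before to 50 after the start). The stretches share 78 bases, read from opposite strands, which shows how close the starts of these genes lie. Both RUNX core forms and the SMAD core CAGAC were searched on both strands, and the matches are shown because RUNX1 was the factor precipitated and SMADs carry the TGFβ signal. In Col4a2, TGCGGT stood at -79 and CAGAC at -228 relative to the start. The 30 bases around each match are given 5′ to 3′ on the strand of Col4a2, with the match in capitals.
Col4a2 RUNX core: caccgtcccgggTGCGGTgactctgcgcag
Col4a2 SMAD core: agcagcagaagcCAGACgctgagccggggc
The Col4a1 stretch held no match to either RUNX form or to CAGAC. Both Col4a2 matches thus lay outside the 78 shared bases. Since a stretch ends 50 bases after the start, these matches may still lie near the start of Col4a1. The AP-1 motif TGAGTCA was in neither stretch. Of 32851 RefSeq promoter stretches of the same length, 22.4% held a RUNX core in either form, 6.45% TGCGGT, 49.6% CAGAC and 5.2% TGAGTCA. The promoter table is of another build than the peaks, so no peak was placed on these sequences.

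The 6 lists held between 14733 and 42050 peaks. Within each batch every TGFβ list was longer than every vehicle list, and peaks were narrower in batch 2 (median widths of 343 and 319 bp) than in batch 1 (523 to 735 bp). The fold enrichment of a peak is the authors' value at its summit over a local background, and it is not scaled between libraries. Whether that background came from the ChIP reads or from an input is not stated in the sources used here. Read depth is unknown from the lists. The background in overlapping fragments, worked out from fold and p together, had its lowest value at 10.4 to 11.8 in the 6 libraries. A site not called in a library can lie just under the threshold there. Values of 3 libraries of a treatment are given in the order of replicates 1, 2 and 3, the last from batch 2.

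The number of peaks was compared first. At Fn1, the TGFβ libraries had 4, 8 and 4 peaks, and each vehicle library had 2, which in vehicle replicate 3 lay in a single site. Of the 4 peaks of TGFβ replicate 3, 2 lay in sites that no other library called, with folds of 2.75 and 2.28. The groups did not overlap, with means of 5.33 ± 2.31 and 2.0 ± 0.0 (SD, n = 3 each). The difference of 3.33 gave p = 0.1 in a two-sided exact permutation test, the smallest value that 3 against 3 libraries can give. In tiles of the same 180 kb size that held any peak, 2.99% had every TGFβ library above every vehicle library. Such tiles held a median of 4.0 regions, fewer than the 10 sites of the Fn1 window. A tile without a peak in every TGFβ library cannot show this order.

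At Col4a1 and Col4a2 the TGFβ libraries had 26, 30 and 7 peaks and the vehicle libraries 8, 12 and 3. TGFβ was higher within each batch, but the batch 2 TGFβ library lay below both batch 1 vehicle libraries. The means were 21.0 ± 12.3 and 7.67 ± 4.51 (SD, n = 3 each; two-sided exact permutation p = 0.3), a ratio of 2.74. At Col1a1 libraries had 11, 13 and 4 peaks under TGFβ against 8, 9 and 2 under vehicle, with means of 9.33 ± 4.73 and 6.33 ± 3.79 (SD, n = 3 each; two-sided exact permutation p = 0.5). The share of tiles with TGFβ wholly above vehicle was 3.53% at the size of the Col4a1 and Col4a2 window and 2.74% at that of Col1a1. These tiles too were sparser than the windows, with medians of 7.0 and 3.0 regions. Within batches, all 3 windows gave the most extreme arrangement (exact permutation p = 0.167, the smallest of 12 labelings). None of these differences passed 0.05, which this design cannot reach.

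List length moved with these counts. Per 10000 peaks of the list, Fn1 had 1.19, 1.9 and 2.13 peaks with TGFβ and 1.36, 0.926 and 1.23 with vehicle, so the groups overlapped (exact permutation p = 0.3). Col4a1 and Col4a2 had 7.74, 7.13 and 3.73 per 10000 peaks with TGFβ and 5.43, 5.56 and 1.84 with vehicle. TGFβ was still higher within each batch, while the exact permutation p of 0.4 takes no account of batch. Col1a1 had 3.27, 3.09 and 2.13 with TGFβ and 5.43, 4.17 and 1.23 with vehicle (exact permutation p = 0.6). There the direction of the means turned, to a difference of -0.777. Some Col1a1 peaks are split within a merged site: libraries called 10, 13 and 2 Col1a1 sites under TGFβ against 5, 7 and 1 under vehicle. Counted as sites per 10000 peaks, a count chosen after seeing the data, the Col1a1 difference was -0.039 (exact permutation p = 1.0). In lists cut to equal length, the difference was 0.333 peaks at Fn1, 3.67 at Col4a1 and Col4a2 and -0.333 at Col1a1. Without TGFβ replicate 2 the full lists gave a difference of 2.0 peaks at Fn1 and 8.83 at Col4a1 and Col4a2, and without TGFβ replicate 3 the latter was 20.3. At Col1a1 the difference of 3.0 peaks was 1.17 without TGFβ replicate 2, 5.67 without TGFβ replicate 3 and 0.833 without vehicle replicate 3.

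**Figure D1:**
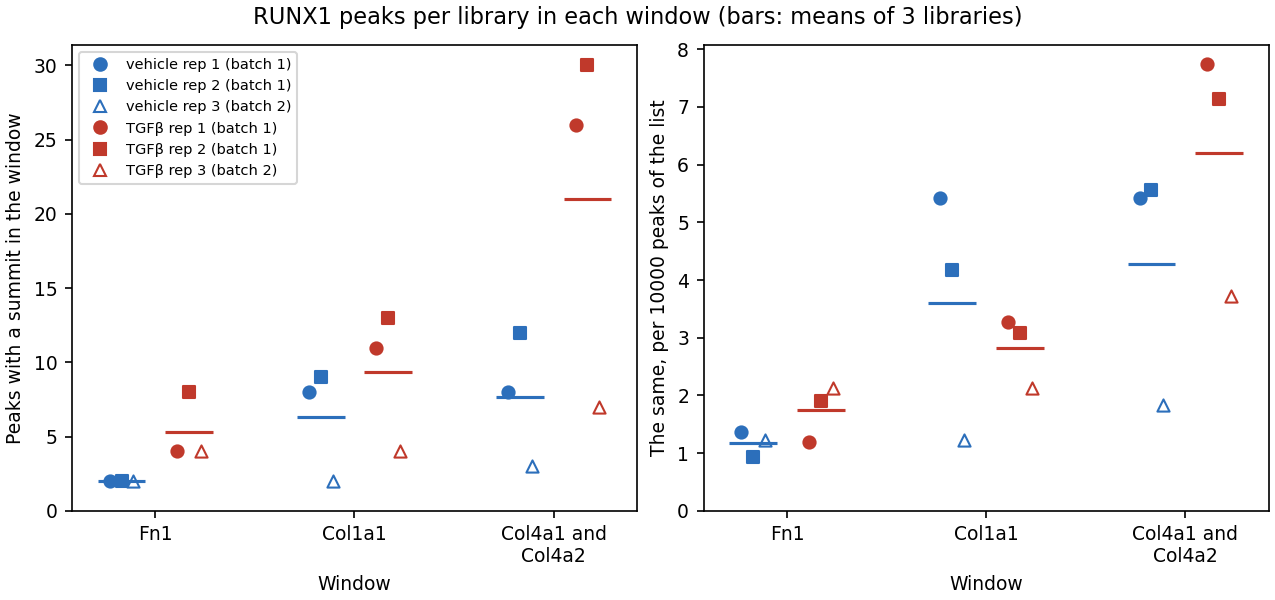
Peaks with a summit in each window (left, number of peaks; right, per 10000 peaks of the library's list), by window, for the 3 vehicle (blue) and 3 TGFβ (red) libraries; filled points are batch 1, open points batch 2, and bars are group means. At Fn1 the TGFβ counts of 4 to 8 lie above the vehicle counts of 2, while per 10000 peaks the groups overlap in every window.

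The covered length of the windows was the sum of peak widths. It was 42.4, 62.9 and 8.27 kb under TGFβ, against 15.02, 22.98 and 3.36 kb under vehicle. TGFβ covered more within each batch (exact permutation within batches p = 0.167, the smallest of 12 labelings). The batch 2 values stood below all batch 1 values. The means were 37.8 ± 27.6 and 13.8 ± 9.87 kb (SD, n = 3 each; two-sided exact permutation p = 0.3). Per 10000 peaks of the list they were 10.7 ± 5.54 and 7.64 ± 4.83 kb (SD, n = 3 each; exact permutation p = 0.5), and in lists of equal length the difference fell from 24.0 to 12.5 kb. Fn1 gave 6.72, 9.23 and 2.05 kb of it with TGFβ and 2.3, 2.46 and 0.798 kb with vehicle.

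The sites were then sorted by the libraries that called them. No site of the 54 was called by vehicle libraries alone, against 14.6% of all regions. TGFβ libraries alone called 33 (61.1%), against 51.6% of all regions: 8 of 10 at Fn1, 6 of 13 at Col1a1 and 19 of 31 at Col4a1 and Col4a2. The shares in this paragraph are not matched for batch. A batch 2 library called 40.2% of all regions but 22.2% of the sites. Regions called in vehicle and not TGFβ in batch 2 made up 12.5% of all regions. A single library called 18 of the 54 sites (33.3%), against 50% of all regions. These 18 are among the 33, and 15 of them came from TGFβ replicate 2, which has the longest list. All 6 libraries called 5 sites (9.26%), 1 at Fn1, 1 at Col1a1 and 3 at Col4a1 and Col4a2, against 6.36% of all regions. At least 5 libraries called 10 sites (18.5%), against 11% of all regions. All TGFβ and no vehicle libraries called 0 sites, against 0.619% of all regions, and the opposite pattern also had 0, against 0.0109%.

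Batch 2 libraries called few of the sites. They called 12 of 54 (22.2%), against 40.2% of all regions. Of these, 5 were called in both batch 2 libraries, and 7 (13%) in the TGFβ library alone, against 15.7% of all regions. The vehicle library of batch 2 called 0 sites that the TGFβ library did not, against 12.5% of all regions. At Fn1, 2 of the 4 sites of TGFβ replicate 3 were called in no other library, with folds of 2.75 and 2.28. All other sites of this library in the 3 windows were shared with batch 1.

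Site density differed between the windows. The Col4a1 and Col4a2 window held 31 sites, where tiles of its 350 kb with any peak held a median of 7.0 regions. Col1a1 had 13 sites against a median of 3.0 per 130 kb tile, and Fn1 10 against 4.0 per 180 kb tile. Without the 50 kb flanks, the inner part of the windows held 34 of the 54 sites: 6 at Fn1, 5 at Col1a1 and 23 at Col4a1 and Col4a2. Since the gene table in hand is of GRCm38, exons, introns and starts were not placed on the sites. By gene order in that table, Fn1 lies between Atic and Mreg, Col1a1 between Gm11544 and Sgca, and the Col4a1 and Col4a2 pair between Irs2 and Rab20, so a site in a flank may lie nearer to another gene.

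**Figure D2:**
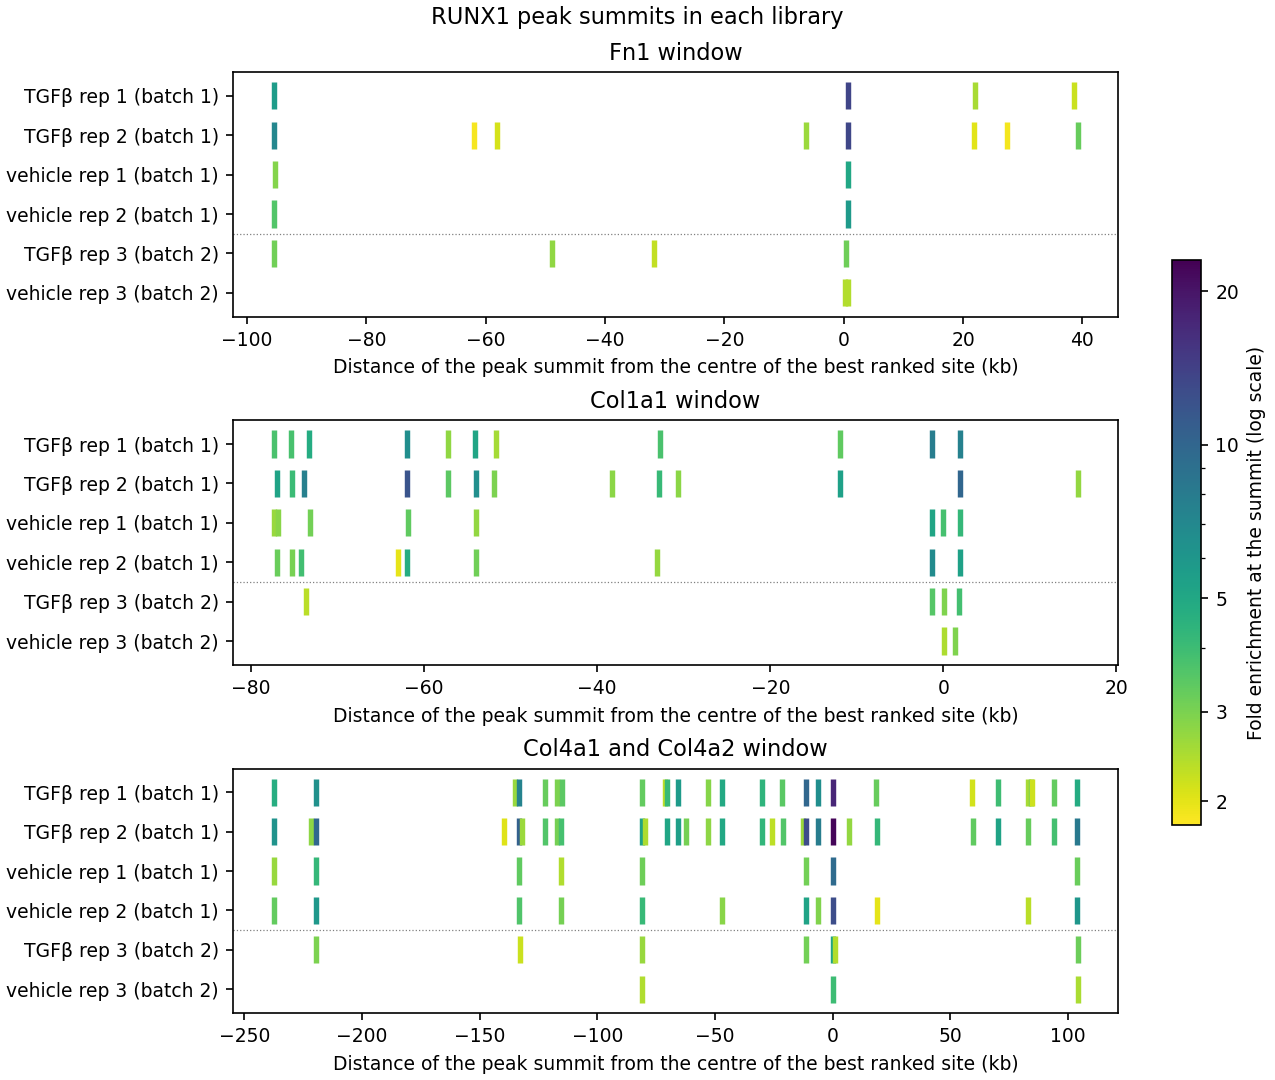
Summits of RUNX1 peaks in the 3 windows, by library (rows) and distance in kb from the centre of the best ranked site of the window (x axis), coloured by fold enrichment on a log scale. The darkest marks, at 0 kb, are the Fn1 site with folds up to 13.6 and the Col4a1 and Col4a2 site with folds up to 22.2; most other marks stand in the 2 batch 1 TGFβ rows.

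Fn1 had 1 strong site. It lay on chromosome 1 from 71689535 to 71694148, in the inner part of the window, and was called in all 6 libraries. Its fold was 13.6, 13.3 and 3.16 under TGFβ against 5.05, 5.79 and 2.42 under vehicle. Within batch 1 both TGFβ values lay above both vehicle values, with a ratio of geometric means of 2.49. In batch 2, with 1 library a treatment, the ratio was 1.3. The pileup, the number of fragments overlapping at the summit, reached 167 and 151 under TGFβ against 59 and 72 under vehicle in batch 1. In batch 2 it was 46 under TGFβ and 33 under vehicle. Background at these summits was 10.4 to 11.6 in batch 1.

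The Fn1 site was also the widest call of its window. TGFβ peaks covered 4381 and 4614 bp of it in batch 1, and vehicle peaks 1671 and 1701 bp. In batch 2 they covered 1346 and 798 bp, the latter as 2 separate peaks. The 4 batch 1 summits fell within 43 bp of each other. By −log10 q the site stood at the 97.9 and 96.4 percentile of the batch 1 TGFβ lists and the 85.7 and 88.4 percentile of the batch 1 vehicle lists. In batch 2 it stood at the 75.5 percentile with TGFβ and the 36.4 percentile with vehicle.

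The other Fn1 site called in vehicle libraries lay in the flank, on chromosome 1 from 71595680 to 71596968, at -95.5 kb from the strong site. Its fold was 5.67, 7.10 and 3.12 under TGFβ against 2.89 and 3.58 in the batch 1 vehicle libraries. Vehicle replicate 3 did not call it. The batch 1 ratio was 1.97, with no overlap between treatments. The background at the vehicle summits, 15.6 and 13.5, was above that at the batch 1 TGFβ summits, 11.3 and 10.4. Pileups reached 69 and 80 under TGFβ against 47 and 51 under vehicle. The remaining 8 Fn1 sites were weak, and the 2 of them called in both batch 1 TGFβ libraries had folds of 2.02 to 3.27.

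At Col1a1 the best ranked site lay outside the inner part. That site, on chromosome 11 from 94879386 to 94884362, stood in the flank on the side of Sgca, which encodes α-sarcoglycan. All 6 libraries called it, with folds of 7.61, 9.97 and 3.86 under TGFβ against 5.14, 6.78 and 2.94 under vehicle. TGFβ was above vehicle within each batch, by ratios of 1.48 and 1.31. The site is a chain of neighbouring peaks rather than 1 summit, as libraries called between 1 and 3 peaks in it and their strongest summits spanned 3264 bp. The batch 1 ratio sets different summits against each other. Those of TGFβ replicates 1 and 2 lay near +1.9 kb from the site's centre, those of vehicle replicates 1 and 2 near -1.3 kb. Near +1.9 kb these vehicle libraries had folds of 4.2 and 5.33. Near -1.3 kb TGFβ replicate 1 had 7.93, and TGFβ replicate 2 had no separate peak.

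The second widely called site of the Col1a1 window lay on chromosome 11 from 94807038 to 94809440, in the opposite flank. Its fold was 4.78, 7.63 and 2.33 under TGFβ against 3.08 and 3.88 in the batch 1 vehicle libraries, with no call in vehicle replicate 3. The batch 1 ratio was 1.75, and batch 1 summits spread over 1000 bp. The site nearest to the inner part from that side, chosen for mention after its values were seen, ran from 94818174 to 94820595. It had the highest fold of the window, 11.8 in TGFβ replicate 2, with 6.57 in TGFβ replicate 1 and 3.34 and 4.68 in vehicle replicates 1 and 2. Batch 2 libraries did not call it.

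The inner part of the Col1a1 window held 5 sites, all without a call in batch 2, against 40.2% of all regions with one. The strongest, also chosen after its values were seen, ran from 94827206 to 94829014. Folds were 5.14 and 6.56 in the batch 1 TGFβ libraries against 2.72 and 3.13 in those of vehicle, a batch 1 ratio of 1.99. Of the other inner sites, those from 94824029 to 94825058 and from 94829866 to 94830527 were called in both batch 1 TGFβ libraries and in no vehicle library. Their folds were 2.76 and 3.42 at the first and 2.54 and 2.98 at the second in TGFβ replicates 1 and 2. A stronger site of this kind lay in the flank from 94869824 to 94870453, with folds of 3.34 and 5.4 and summits 8 bp apart.

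The Col4a1 and Col4a2 window held the strongest site of all 3 windows. It lay on chromosome 8 from 11442098 to 11445098, in the inner part. Its fold was 17.4, 22.2 and 5.16 under TGFβ against 9.51, 12.8 and 4.0 under vehicle. TGFβ was higher within each batch, by ratios of 1.78 and 1.29. The site ranked high in every list, at the 94.2 percentile of −log10 q or above, and summits of the 6 libraries lay within 117 bp. Pileups reached 214 and 252 under TGFβ against 110 and 157 under vehicle in batch 1, and 78 and 60 in batch 2.

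A neighbour at -11.1 kb from it, from 11431515 to 11433402, had the highest batch 1 ratio of the 15 sites called in all 4 batch 1 libraries, 2.80. Its fold was 9.89, 12.8 and 3.09 under TGFβ against 3.08 and 5.25 in the batch 1 vehicle libraries. Vehicle replicate 3 did not call it. Next in ratio among these 15, at 2.53, was the inner site from 11308624 to 11310878. Its folds were 7.38, 10.5 and 2.21 with TGFβ and 3.34 and 3.63 in vehicle replicates 1 and 2, again without a call in vehicle replicate 3.

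The inner site from 11360604 to 11363257 was called in all 6 libraries with summits within 49 bp, at a low fold that overlapped between the treatments. TGFβ libraries had 3.32, 5.26 and 2.68, against 3.17, 4.12 and 2.44 under vehicle. The batch 1 groups overlapped, and the ratios of 1.16 in batch 1 and 1.1 in batch 2 were the lowest among the shared sites of the windows. Pileups reached 40 and 59 under TGFβ against 36 and 50 under vehicle in batch 1, and 34 and 32 in batch 2. In covered length TGFβ was higher, at 2012 and 2616 bp against 1408 and 961 bp in batch 1.

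Both widely called sites in the flanks of this window had batch 1 ratios between these, of 1.6 and 1.44. The one from 11222875 to 11224165 had folds of 6.4, 9.91 and 2.98 under TGFβ against 4.2 and 5.9 in the batch 1 vehicle libraries. The groups of batch 1 did not overlap, and summits of the 5 libraries lay within 44 bp. The one from 11547067 to 11548179 was called in all 6 libraries, with folds of 4.86, 8.24 and 3.2 with TGFβ and 3.21, 6.05 and 2.5 with vehicle. There the batch 1 groups overlapped, since vehicle replicate 2 was above TGFβ replicate 1.

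**Figure D3:**
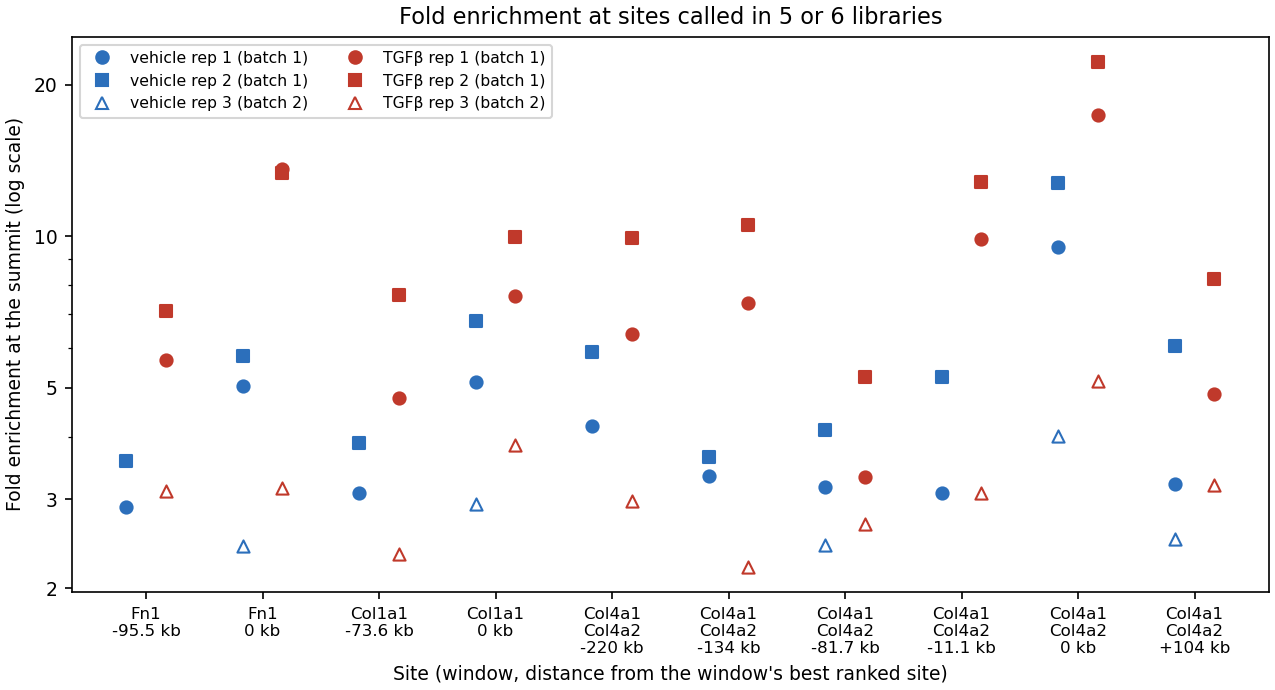
Fold enrichment (log scale) of each library at the 10 sites called in 5 or 6 libraries, named by window and distance from the window's best ranked site; blue is vehicle, red TGFβ, filled points batch 1 and open points batch 2. Filled red points lie above filled blue points at 8 of the 10 sites. The exceptions are the Col4a1 and Col4a2 sites at -81.7 and +104 kb. Among all regions called in the 4 batch 1 libraries, 68.7% had this order.

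Fold was then compared at all sites with values in both treatments. In batch 1, 15 of the 54 sites (27.8%) were called in all 4 libraries: 2 at Fn1, 5 at Col1a1 and 8 at Col4a1 and Col4a2. The share was 17.7% of all regions, which include those called only in batch 2. Both TGFβ folds lay above both vehicle folds at 13 of the 15 sites (86.7%), and both vehicle folds above at 0. Among all 11360 regions called in these 4 libraries the shares were 68.7% and 1.6%, so this order was also common over the genome. The ratio of TGFβ to vehicle ran from 1.16 to 2.8 over the 15 sites with a median of 1.78, against a median of 1.49 over all such regions. Covered length of the site showed the same order at 12 of 15 sites (80%), against 63% of all such regions.

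In batch 2 the comparison rests on 1 library a treatment and has no replicate check. TGFβ had the higher fold at 5 of the 5 sites called in all 6 libraries, against 85.5% of all such regions. The ratios there ran from 1.1 to 1.31, with a median of 1.29 against 1.22 over all 4087 regions. Ratios in batch 2 were below those of batch 1 at each of these 5 sites, and this difference between batches was not tested.

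**Figure D4:**
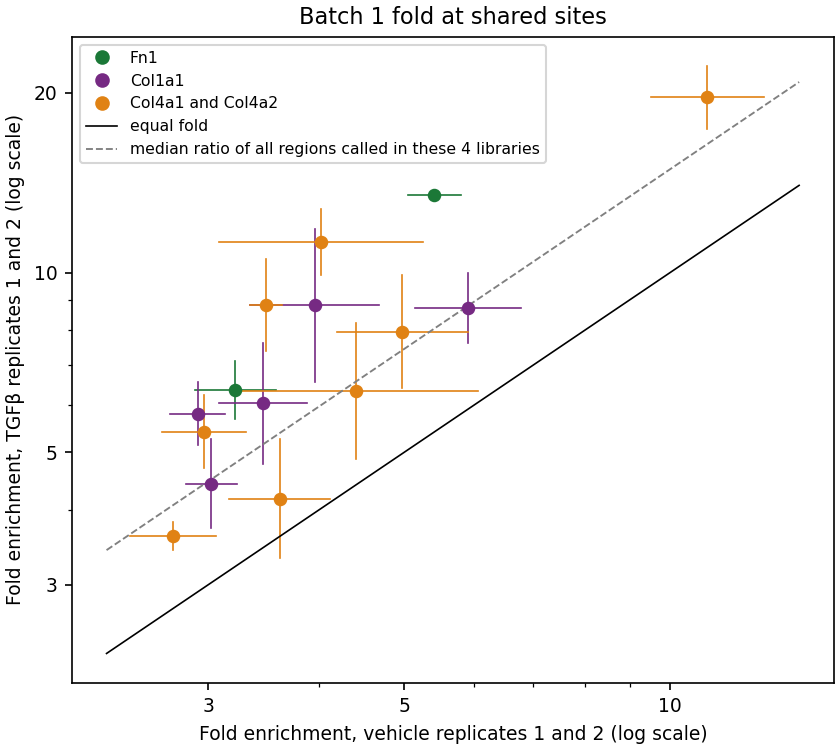
Batch 1 fold enrichment at the 15 sites called in all 4 batch 1 libraries: geometric mean of TGFβ replicates 1 and 2 (y axis) against vehicle replicates 1 and 2 (x axis), both on log scales; lines through a point span its 2 libraries. All points lie above the solid line of equal fold, and the dashed line is the median ratio of 1.49 over all 11360 regions called in these libraries.

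Sites found with TGFβ but not vehicle in batch 1 had median ranks near the middle of their lists, at the 51.3 and 53.4 percentile of −log10 q in TGFβ replicates 1 and 2. Both batch 1 TGFβ and neither batch 1 vehicle library called 15 of the 54 sites (27.8%), against 16% of all regions: 2 at Fn1, 3 at Col1a1 and 10 at Col4a1 and Col4a2. The opposite pattern had 0 sites, against 0.204%. All regions include those called only in batch 2, which cannot show either pattern. A batch 2 library called 40.2% of all regions and 22.2% of the sites. At these 15 sites the folds had medians of 3.24 and 3.59 in TGFβ replicates 1 and 2, and none was called in batch 2. In lists cut to the 14733 best peaks each, 3 of 26 sites had this pattern (11.5%), against 7.52% of all regions, and 0 had the opposite one, against 3.11%. Without TGFβ replicate 1 the count was 30. Of the batch 1 TGFβ libraries only replicate 2, with the longest list, then had to call a site. The count could therefore not fall at the same sites.

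The best ranked of these lay in the Col4a1 and Col4a2 window. The site from 11377212 to 11378132 had a fold of 5.75 in TGFβ replicate 1 and of 5.52 in TGFβ replicate 2, with pileups of 70 and 62 and summits 15 bp apart. The site from 11372776 to 11374117 had folds of 4.13 and 5.08, and the one from 11513360 to 11514394, in the flank, 3.97 and 5.26. The Fn1 sites of this kind were weaker and lay in the flank beyond the strong site, from 71713291 to 71713958 and from 71730314 to 71731617. Their −log10 q ran from 1.55 to 8.03, while the lowest of any list was 1.0.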

How the data were processed

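RUNX1 ChIP-seq peaks of 6 libraries were used, grouped by the treatment label. The authors deposited 1 narrowPeak list per library. The submitters' processing notes name Trimmomatic, Bowtie2 2.5.2, DRAGEN and MACS2 and the build GRCm39; parameters, filters and the control are not given in the sources used here. Per the narrowPeak format, each deposited row gives a fold (the ratio to local background), its p and q values as −log10, a score and the summit's offset. The score, 10 times the deposited −log10 q, was not used further.

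Peaks overlapping by at least 1 bp were merged over the whole genome. The peak with the highest −log10 q stood for a library at a site. Pileup and background were recovered from fold (pseudocount 1) and p, assuming a Poisson tail, within 0.001 on the −log10 p scale for 99.6% to 99.9% of peaks. Peak lists hold no read counts, so libraries were compared by exact permutation over 20 labelings. Libraries paired by batch and title wording had call deviations that correlated with r of 0.135, 0.225 and 0.418 over 64286 regions. Named sites were those called in 5 or 6 libraries, the best ranked of each window, and in each window the 3 best ranked called in both batch 1 TGFβ and no vehicle libraries; others are marked. The members, lists and tests were chosen with earlier results of these data known. Code was tested on simulated data. A planned list of other matrix genes was not analysed here, since the gene table is of GRCm38. Python 3.11.15, numpy 2.4.6, pandas 2.3.3 and scipy 1.17.1 were used.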

Additional observations from a re-analysis of the deposited data

Results flagged for a closer look

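Per 10000 peaks of the list, the Col1a1 window moved in opposite directions in the 2 batches. In batch 1 both TGFβ libraries lay below both vehicle libraries, a difference of -1.62, and in batch 2 the TGFβ library lay above the vehicle library, a difference of 0.899. Counted as sites per 10000 peaks, the TGFβ libraries had 2.98, 3.09 and 1.06 and the vehicle libraries 3.39, 3.24 and 0.615. Batch 2 has 1 library a treatment, and the difference between batches was not tested.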

How the results depend on the processing

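The direction of the Fn1 count, the Col4a1 and Col4a2 count and the covered length held under the alternatives run for each (15, 15 and 13). With at most 3 against 3 libraries p cannot fall below 0.1. The Fn1 p of 0.1 (two-sided exact permutation) rose to 0.6 with a −log10 q of at least 5, to 0.4 with narrowed windows and to 1.0 in lists of equal length. The Col1a1 difference of 3.0 peaks turned to -0.333 in lists of equal length, to -0.777 per 10000 peaks and to -0.039 as sites per 10000 peaks; the cause was not tested. Counting sites in place of peaks, chosen after seeing the data, gave 3.67, 4 and 12 sites at Fn1, Col1a1 and Col4a1 and Col4a2. Leaving out 1 library gave differences from 2.0 (without TGFβ replicate 2) to 4.0 peaks at Fn1, from 0.833 (without vehicle replicate 3) to 5.67 (without TGFβ replicate 3) at Col1a1, from 8.83 (without TGFβ replicate 2) to 20.3 (without TGFβ replicate 3) at Col4a1 and Col4a2, and from 11.6 to 38.8 kb in covered length, without the same 2 libraries. Lists of equal length lowered the Fn1 difference to 0.333 and the Col4a1 and Col4a2 difference to 3.67. With a −log10 q of at least 5, or with windows narrowed by 40 kb on each side, the Fn1 difference was 1.33. With the replicate block (pairs as under the methods) the differences were 3.33, 3.0 and 13.3 peaks and 24.0 kb (exact sign-flip p = 0.25, the smallest possible), and no call changed.

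The 0 sites called in all TGFβ and no vehicle libraries became 15 in batch 1 only and 15 without TGFβ replicate 3, by construction with fewer libraries to satisfy, and ranged from 0 to 15 when 1 library was left out. The 15 sites called in both batch 1 TGFβ and neither batch 1 vehicle library became 3 in lists of equal length. They became 15 to 30 when 1 library was left out, the highest without TGFβ replicate 1. With fewer libraries to satisfy, this count can only stay or rise at the same sites, so the range is no check of it. The count of 13 sites with non-overlapping batch 1 folds was 13 with pileup over the lowest background and with the highest fold of a site. It was 13 to 15 when 1 library was left out, where it too can only stay or rise at the same sites. These alternatives were chosen after seeing the data. Without read counts, a site missing from a list cannot be told from one just under the threshold.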
